A study of Homo sapiens with 6 samples.

Results

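This section describes the genes that build and maintain epithelial cell contacts in HCT116 cells given miR-224. A list of 45 genes was taken: 13 of tight junctions, 3 of adherens junctions, 9 of desmosomes, 7 of apical and basal polarity, 9 of epithelial identity and 4 keratins. A gene was measured by the array's probe sets annotated with its symbol alone, and the brightest of these by mean over the 6 arrays stood for it. This gave values for 42 of the 45, among 19775 genes in all. CTNND1 and ESRP2 had only probe sets annotated with a second symbol as well, and F11R was not analysed here.

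HCT116 is an established human colon carcinoma cell line. The miR-224 group received miR-224 precursor molecules and the control group control oligos, both at a dose of 50 nM, and the cells were harvested for RNA 24 h later. Each group has 3 arrays, numbered 1 to 3, and the series describes them as 3 pairs from 3 independent experiments, so every difference below is the miR-224 array minus the control array of the same number. All cells are of 1 line, and the transfection adds the microRNA from outside, so the groups compare an added amount with none added rather than 2 natural states. Values are log2 expression, on which a difference of 1 is a doubling.

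Epithelial cells are held together near their apex by tight junctions, in which occludin and the claudins seal the space between neighbours and the ZO proteins tie them to actin. Below these lie adherens junctions, where E-cadherin binds its partner on the next cell and catenins link it to actin, and desmosomes, where desmosomal cadherins, plakoglobin, plakophilins and desmoplakin anchor keratin filaments. The Crumbs, PAR and Scribble complexes set the border between apical and lateral membrane, and transcription and splicing factors such as GRHL2, ELF3 and ESRP1 keep the epithelial programme on. MicroRNAs pair through their seed with sites in messenger RNAs and lower their level or translation.

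The mature strands that RefSeq (GRCh38.p14) lists for MIR224 are printed because they are the sequences the treatment is named for, with the seed, bases 2 to 8, in capitals. The 5p strand lies at chrX:151958628-151958652 and the 3p strand at chrX:151958584-151958606, both on the minus strand.
hsa-miR-224-5p: uCAAGUCAcuagugguuccguuuag
hsa-miR-224-3p: aAAAUGGUgcccuagugacuaca
The letters complementary to the seed are TGACTTG for 5p and ACCATTT for 3p. The 2 seeds differ, and sites for either in the messages of these genes were not analysed here.

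The arrays carried general markers of epithelium, while intestinal ones lay on both sides of the median level. KRT8, KRT18, KRT19, EPCAM, CDH1, CDX2, CLDN3, CLDN4 and CLDN7 all lay at or above the median of all genes (4.75), as did 39 of the 42 genes described here, while VIL1, the villin of the brush border, lay below it on all 6 arrays (3.72 to 4.33). The intestinal cadherin CDH17 (mean 2.45) and the adhesion molecules CEACAM5 (4.48) and CEACAM6 (3.37), from the other pathway lists, lay below it as well. CDX1 of those lists (5.23) lay above it, as did CDX2, the intestinal homeobox factor (5.33). CLDN1, CLDN2 and KRT20 lay below that median too, so that their differences are those of dim probe sets. Of the markers of other cells, 1 of 8 for fibroblasts (COL1A1), 0 of 8 for leukocytes and 0 of 6 for endothelium lay at or above that median. The mean level of the fibroblast list was 3.35 to 3.54 in miR-224 cells and 3.30 to 3.44 in control cells. That of the leukocyte list was 3.29 to 3.57 in miR-224 cells and 3.28 to 3.42 in control cells, and that of the endothelial list 3.35 to 3.61 in miR-224 cells and 3.36 to 3.52 in control cells. Experiment 1 stood apart on both of its arrays: the actin control probe set at the 5′ end averaged 4.28 there and 12.4 in experiments 2 and 3, while the one at the 3′ end averaged 12.5 in both.

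Most of the 42 genes differed little between miR-224 and control cells, and none passed the test. As the samples are bulk RNA, fewer cells with a message and less of it per cell cannot be told apart. The test was a linear model (limma) with experiment as a block, which sets each miR-224 array against the control of its own experiment. It called 0 of 42 at an adjusted p under 0.05, and 0% of all 19775 genes. The largest differences downward were those of OCLN, DSG2, LLGL2 and ELF3, and the largest upward were those of DSP and CLDN3. At an unadjusted p under 0.05, 4 of the 42 were lower (OCLN, DSG2, LLGL2 and ELF3), or 9.52%, against 5.52% of all genes and 8.10% of the 9888 genes at or above the median level, where 39 of the 42 lie. CLDN3 alone was higher at that level, or 2.38%, against 5.45% of all genes and 4.78% of those at or above the median level. The median difference was -0.07 over the 42 genes, 0.01 over all genes and -0.0094 over genes at or above the median level. A mean below control was seen for 26 of 42 (61.9%), against 46.8% of all genes and 52.5% of those at or above the median level, so that genes below that level leaned upward.

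The size of the differences was bounded more closely than their direction. All 42 of the 95% intervals of the blocked fit lay within -1 and 1, and 32 lay within -0.5 and 0.5. A doubling or a loss of 1 log2 unit thus lay outside each of the 42. Each interval is for 1 gene alone, on the probe set used and over all 3 experiments. The bound depends on both choices: OCLN stood at -0.71 without experiment 1, and ELF3 at -0.84 on another probe set. Of the 42 intervals, 37 included 0. The shares of all genes within these limits were not counted. The median standard error was 0.110 for the 42 genes and 0.112 for all genes, values that the pooling of variance over genes draws together. The median SD of the 3 paired differences, which is not pooled, was 0.161 for the 42 genes and 0.177 for all genes. The median size of the difference, sign aside, was 0.106 and 0.101, so that such intervals are not particular to the 42. These intervals rest only in part on the spread between a gene's own 3 pairs, as the variance is pooled over genes. The lowest standard error of any gene was 0.102, and EPCAM had 0.10 although the SD of its 3 differences was 0.023. Each ± below is the standard error of this fit and not the spread of the gene's own pairs. These errors ran from 0.10 to 0.19, and they were 0.11 to 1.58 when the pairing was left out. In no gene did all 3 miR-224 arrays lie beyond all 3 control arrays, against 2.11% of all genes downward and 4.16% upward. The same sign in all 3 experiments was seen for 8 genes downward (19.0%), against 14.4% of all genes, and for 6 upward (14.3%), against 18.3%. In the brighter genes, those no lower than the median level, these shares were 18.8% downward and 16.5% upward, and non-overlapping arrays were seen for 1.49% downward and 1.53% upward.

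**Figure D1:**
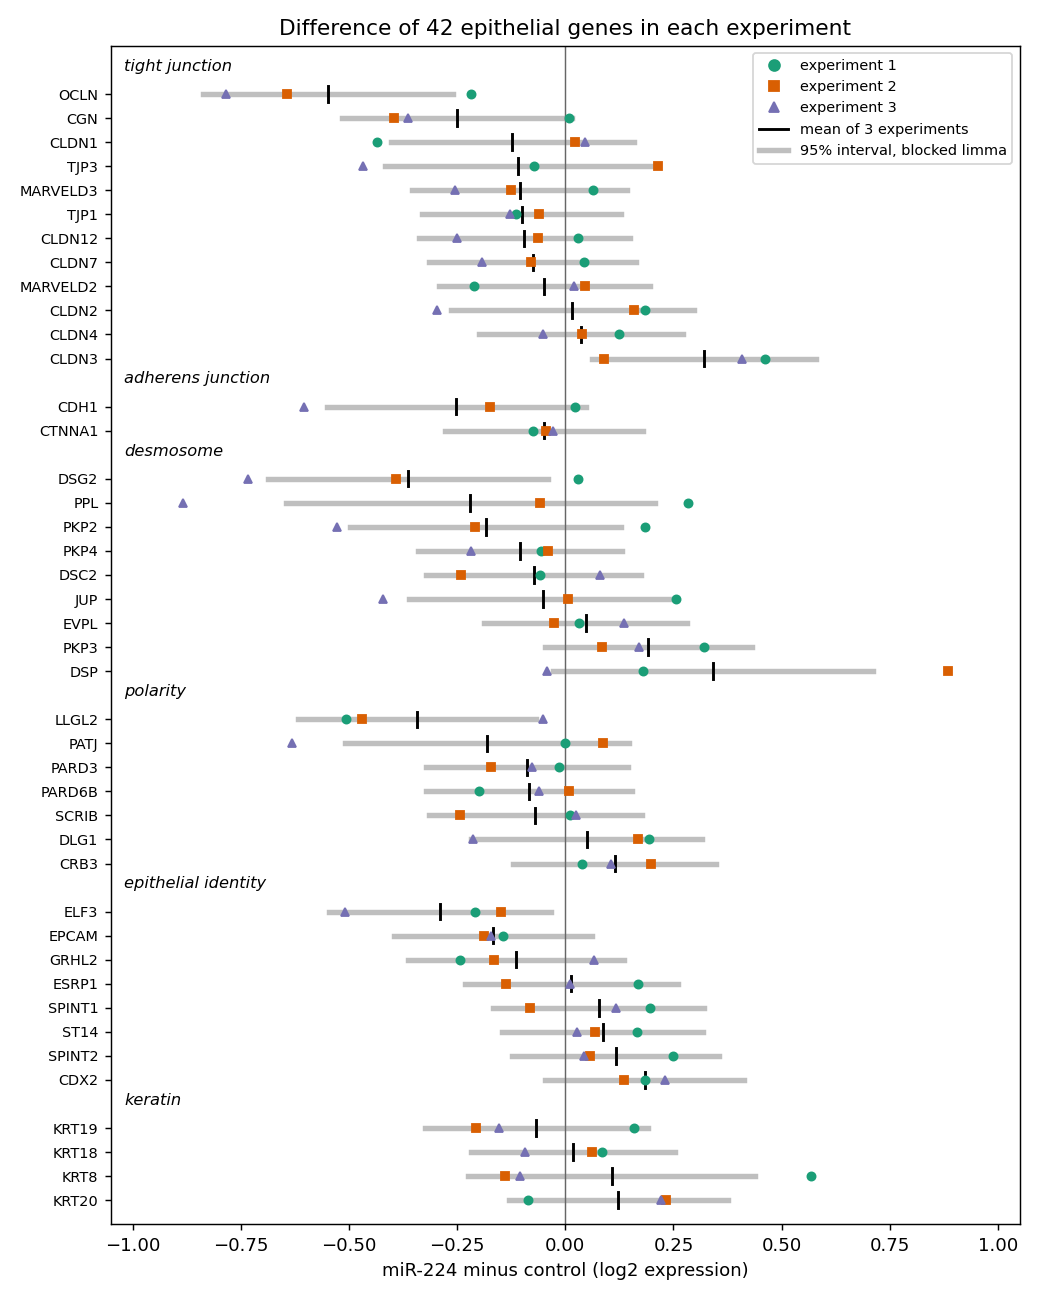
Difference between miR-224 and control cells (log2, horizontal axis) for the 42 genes, grouped by role, with 1 point for each experiment, a black bar for their mean and a grey bar for the 95% interval of the blocked limma fit. OCLN lies furthest to the left at -0.55, and 37 of the 42 grey bars cross 0.

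Among tight junction genes, 9 of 12 had a lower mean in miR-224 cells, with a median difference of -0.10. OCLN encodes occludin, a membrane-spanning protein of the junction strand. It read 8.27, 7.13 and 7.24 in miR-224 cells of experiments 1, 2 and 3, against 8.48, 7.78 and 8.03 in the control cells. Each miR-224 array lay below its own control, although the groups overlapped because both arrays of experiment 1 were high. The mean difference was -0.55 ± 0.13, or 0.684 times the control level (limma adjusted p = 0.218). RefSeq lists 1 OCLN pseudogene, and how its transcript may share signal with the probe set was not tested.

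CLDN3, a claudin that tightens the junction, read 5.38, 5.82 and 6.54 in miR-224 cells, against 4.92, 5.73 and 6.13 in control cells. It was higher within each pair, by 0.46, 0.09 and 0.41, while the range of either group was wider than these differences. The mean difference was 0.32 ± 0.12 (limma adjusted p = 0.357). Its relative CLDN4 stood at 0.12, 0.04 and -0.05 in experiments 1, 2 and 3, a mean of 0.04 with a 95% interval of -0.20 to 0.27. CLDN7 had a mean of -0.08 and an interval of -0.32 to 0.16. The claudins thus had no common sign.

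CGN encodes cingulin, which binds the cytoplasmic side of the junction to the cytoskeleton. Its differences were 0.01, -0.40 and -0.36, with a mean of -0.25 ± 0.12 (limma adjusted p = 0.483). TJP1, the scaffold ZO-1, read 9.09, 8.98 and 9.02 in miR-224 cells, against 9.20, 9.04 and 9.15 in control cells. It was lower within each pair by a small amount, with a mean of -0.10 ± 0.10 and an interval of -0.33 to 0.13. The remaining genes of this group, TJP3, CLDN1, CLDN2, CLDN12, MARVELD2 and MARVELD3, had means from -0.12 (CLDN1) to 0.02 (CLDN2). CLDN12 encodes a further claudin, MARVELD2 tricellulin at the contacts of 3 cells, MARVELD3 a relative of occludin, and TJP3 the scaffold ZO-3.

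Of the adherens junction genes, CDH1 had the larger difference. It encodes E-cadherin, whose loss is the usual mark of a shift from epithelial to mesenchymal state. CDH1 read 7.85, 7.78 and 7.61 in miR-224 cells, against 7.82, 7.95 and 8.21 in control cells. The pair of experiment 1 was level and that of experiment 3 furthest apart, with control 3 the highest array and miR-224 3 the lowest. The mean difference was -0.25 ± 0.13 (limma adjusted p = 0.533), with an interval of -0.55 to 0.05. CTNNA1, alpha-catenin, which joins the cadherin complex to actin, stood at -0.08, -0.05 and -0.03, a mean of -0.05 with an interval of -0.28 to 0.18.

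Desmosome genes spread in both directions, with 6 of 9 lower and a median of -0.07. DSG2 encodes desmoglein-2, the main desmoglein of simple epithelia. It read 9.22, 8.89 and 8.80 in miR-224 cells, against 9.19, 9.28 and 9.53 in control cells. Both miR-224 arrays of experiments 2 and 3 lay below every control array, while experiment 1 showed a level pair. The mean was -0.36 ± 0.14, or 0.777 times control (limma adjusted p = 0.399).

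DSP encodes desmoplakin, which binds the plaque to keratin. It read 9.18, 9.19 and 9.27 in miR-224 cells, against 9.002, 8.30 and 9.31 in control cells. The low array was control 2, so that the mean difference of 0.34 ± 0.16 (limma adjusted p = 0.495) came mostly from experiment 2. The differences were 0.18, 0.89 and -0.04, and without experiment 2 the mean was 0.07.

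PKP3, a plakophilin of the plaque, was higher within each pair, by 0.32, 0.08 and 0.17, with a mean of 0.19 ± 0.11 (limma adjusted p = 0.557). PKP2, another plakophilin, stood at 0.19, -0.21 and -0.53. JUP, plakoglobin, which serves both desmosomes and adherens junctions, stood at 0.26, 0.01 and -0.42. PPL, periplakin, a linker to keratin filaments, stood at 0.28, -0.06 and -0.88. In these 3 genes the sign turned between experiments 1 and 3. The means of the other desmosome genes were -0.07 for DSC2, a desmocollin, -0.10 for the plakophilin PKP4 and 0.05 for EVPL, envoplakin, the partner of periplakin.

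**Figure D2:**
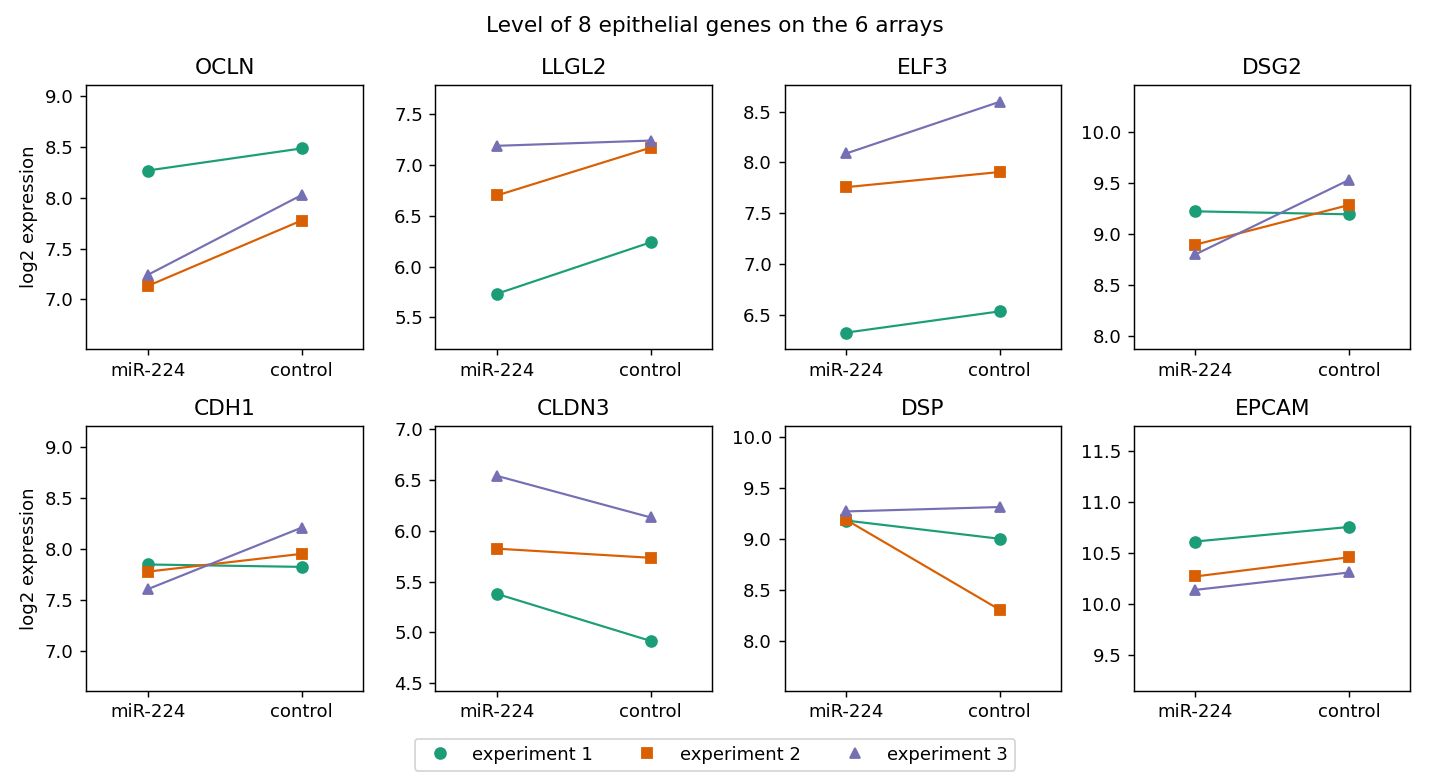
Level (log2 expression, vertical axes, each spanning 2.6 units) of 8 genes in miR-224 and control cells, with a line joining the arrays of 1 experiment. OCLN, LLGL2, ELF3 and EPCAM are lower in miR-224 cells along all 3 lines, DSG2 and CDH1 along those of experiments 2 and 3, and the low point of DSP is control 2.

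Polarity genes had a median of -0.08, with 5 of 7 lower. LLGL2, a basolateral protein of the Scribble group that restrains the apical PAR complex, read 5.73, 6.70 and 7.19 in miR-224 cells, against 6.24, 7.17 and 7.24 in control cells. It was lower within each pair, by clear amounts in experiments 1 and 2 and at -0.05 in experiment 3. The mean was -0.34 ± 0.12, or 0.789 times control (limma adjusted p = 0.352). PATJ, a scaffold of the Crumbs complex, stood at -0.002, 0.09 and -0.63, so its mean of -0.18 came from experiment 3. CRB3, the Crumbs protein of epithelia, was higher within each pair, with a mean of 0.11 ± 0.10. PARD3 and PARD6B of the apical PAR complex had means of -0.09 and -0.08, and SCRIB and DLG1 of the Scribble complex -0.07 and 0.05.

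Genes of epithelial identity had a median of 0.05, with 3 of 8 lower. ELF3, an ETS transcription factor of epithelia, read 6.33, 7.76 and 8.09 in miR-224 cells, against 6.54, 7.91 and 8.60 in control cells. Each miR-224 array lay below its control, at -0.21, -0.15 and -0.51, while the arrays of experiment 1 lay more than a unit below the rest. The mean was -0.29 ± 0.11, or 0.818 times control (limma adjusted p = 0.399). EPCAM, the epithelial cell adhesion molecule, read 10.62, 10.27 and 10.14 in miR-224 cells, against 10.76, 10.46 and 10.31 in control cells. Its pairs, at -0.14, -0.19 and -0.17, differed least among themselves of the 42 genes (SD 0.023), and the mean was -0.17 ± 0.10 (limma adjusted p = 0.601).

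CDX2, the intestinal homeobox factor, was higher within each pair, by 0.18, 0.13 and 0.23, with a mean of 0.18 ± 0.10 (limma adjusted p = 0.561). ESRP1, which keeps epithelial splice forms, had a mean of 0.01 and an interval of -0.23 to 0.26. GRHL2, a grainyhead factor that activates junction genes, had a mean of -0.11 and an interval of -0.36 to 0.13. The membrane protease ST14 (matriptase) and its inhibitors SPINT1 and SPINT2 had means of 0.09, 0.08 and 0.12. ST14 and SPINT2 were higher within all 3 pairs and SPINT1 within 2.

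Keratins form the filaments on which desmosomes pull. KRT18 read 12.16, 12.27 and 12.44 in miR-224 cells, against 12.07, 12.21 and 12.54 in control cells. The mean difference was 0.02, with an interval of -0.22 to 0.25. KRT19 had a mean of -0.07 and an interval of -0.32 to 0.19, and the dim KRT20 a mean of 0.12. KRT8, the partner of KRT18, read 7.30, 11.02 and 11.24 in miR-224 cells, against 6.73, 11.16 and 11.34 in control cells. Both arrays of experiment 1 were low, and the difference of 0.57 in that experiment stands against -0.14 and -0.11 in the others. RefSeq lists 52 pseudogenes of KRT8 and 68 of KRT18, near copies of the messages, and both genes were read by probe sets of the class that can bind several transcripts (suffix x_at). The share of such signal was not tested.

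Leaving out experiment 1, the pair with low 5′ signal, gave OCLN as the only one of the 42 genes to pass, at -0.71 ± 0.14 (limma adjusted p = 0.0374). In that fit 0.880% of all genes passed, and 0.743% did so downward. It has 1 residual degree of freedom, and without experiment 2 or experiment 3 instead none of the 42 passed. In experiments 2 and 3, DSG2 stood at -0.56 (limma adjusted p = 0.114), CGN at -0.38 (0.269), CDH1 at -0.39 (0.324), PKP2 at -0.37 (0.329), PPL at -0.47 (0.329) and ELF3 at -0.33 (0.398). DSP stood at 0.42 (limma adjusted p = 0.421), the largest of the upward values. Of the 42 genes 18 (42.9%) were lower in both of these experiments, against 27.1% of all genes and 36.0% of those at or above the median level, and 10 of the 18 were higher in experiment 1. The median difference was 0.03, -0.05 and -0.09 in experiments 1, 2 and 3, against 0.02, 0.001 and 0.01 over all genes and 0.03, -0.02 and -0.04 over those at or above the median level. Whether the difference between experiments exceeds chance was not tested gene by gene.

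Levels differed more between experiments than between treatments. In 35 of the 42 the mean of experiment 1 differed from that of experiments 2 and 3 by more than miR-224 differed from control. The share of all genes for which this holds was not counted, so the count is not shown to be particular to these genes. Experiment 1 minus experiments 2 and 3 was -4.17 for KRT8, -1.66 for ELF3, -1.58 for CLDN4 and -1.09 for LLGL2. MARVELD2 was higher by 1.09, PARD6B by 0.91 and OCLN by 0.83. A level more than 0.5 lower in experiment 1 was seen in 11 of the 42 (26.2%), against 4.86% of all genes and 7.72% of those at or above the median level. A level more than 0.5 higher was seen in 7 (16.7%), against 21.0% of all genes and 36.9% of the brighter ones. The shift is shared by the miR-224 and the control array of experiment 1. Its part in the treatment differences of that experiment was not tested.

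**Figure D3:**
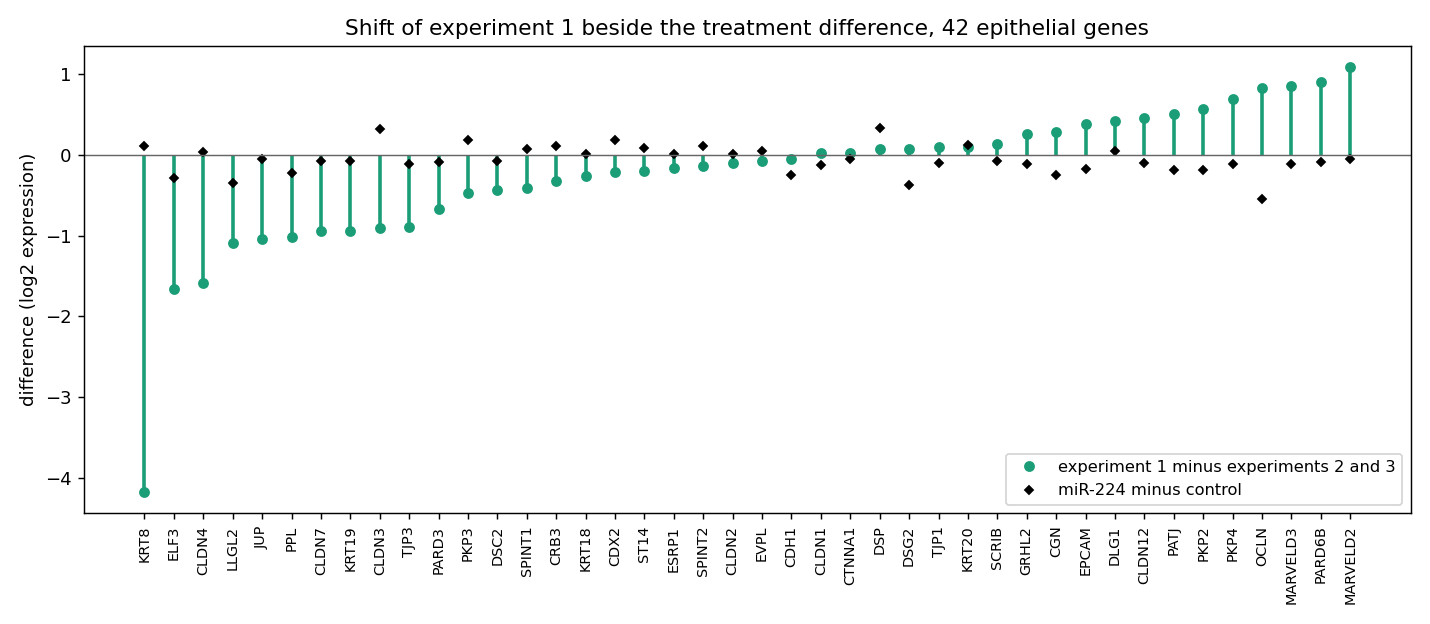
For each of the 42 genes, the mean of experiment 1 minus that of experiments 2 and 3 (green points on stems) beside the difference between miR-224 and control cells (black diamonds), both in log2 units. The green points run from -4.17 (KRT8) to 1.09 (MARVELD2), while the black diamonds stay between -0.55 and 0.34.

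Several of these genes are read by more than 1 probe set, which lie on different parts of the message or on different transcripts. Another probe set at or above the median level existed for 14 of the 42 genes, 20 probe sets in all, and 6 of the 20 had the opposite sign to the one used. For DSG2 both gave lower values, -0.36 on the probe set used and -0.50 on the other. The second stood at -0.14, -0.46 and -0.92 in experiments 1, 2 and 3. Its mean level was 6.58, and experiment 1 minus experiments 2 and 3 was -5.03. The value of -0.14 is thus one of low signal, and the order over experiments cannot be compared. For ELF3 the 3 stood at -0.29, -0.84 and -0.08. For OCLN the value of -0.55 was not shared: the 2 other bright probe sets stood at -0.23 and 0.005. The first of these stood at 0.15, -0.58 and -0.26 in experiments 1, 2 and 3, and the second at 0.54, 0.02 and -0.55. Both were thus higher in experiment 1, where the probe set used was lower. For LLGL2 the other stood at -0.16, with 0.21 in experiment 1. CDH1 has a second, dim probe set at -0.36, with -0.13, -0.43 and -0.52 in experiments 1, 2 and 3. The dim second probe set of CLDN3 stood at 0.17, with -0.31 in experiment 2. Experiment 1 minus experiments 2 and 3 was -2.37 on this probe set of CDH1 and -2.35 on that of CLDN3. Their values in experiment 1 are thus also of low signal.

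**Figure D4:**
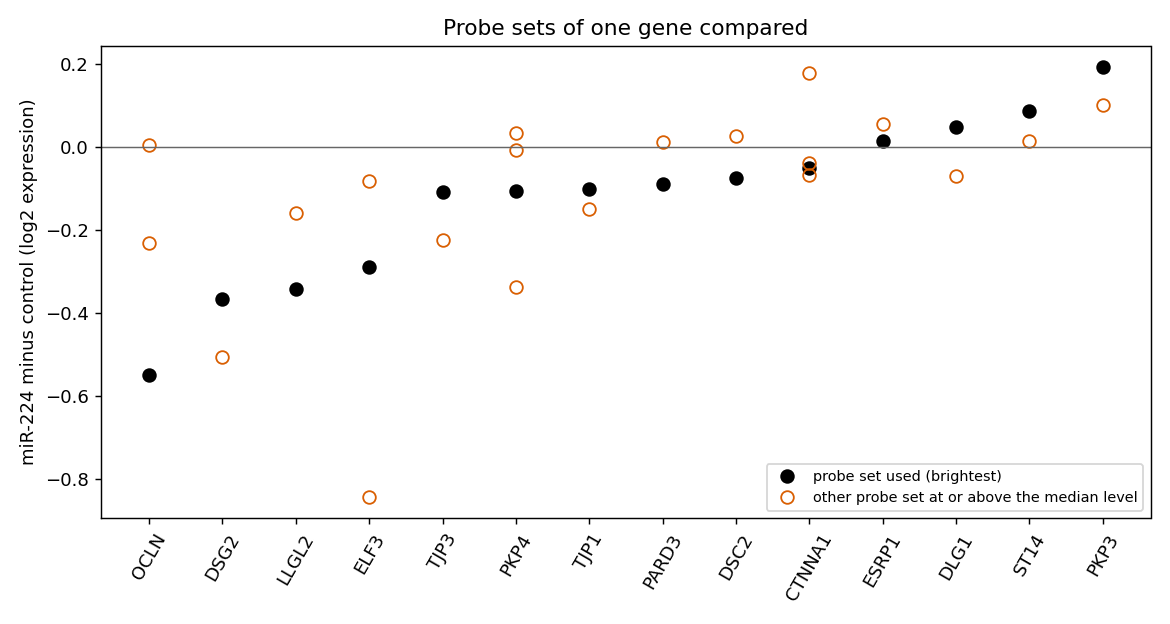
Difference between miR-224 and control cells (log2, vertical axis) on the probe set used (filled) and on other probe sets at or above the median level (open circles) for the 14 genes that have one. OCLN's open circles lie at -0.23 and 0.005 above its filled point at -0.55, and that of DSG2 at -0.50 lies below its filled point at -0.36.

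Other genes of the same pathways gave 0 of 110 past the test in either direction, over lists of further tight junction, adherens junction, desmosome, polarity, keratin and regulator genes and of repressors of the epithelial state. Their median difference was 0.001. At an unadjusted p under 0.05, 5 were lower (AFDN, PLEC, LIN7C, PRKCI and EHF) and 3 higher (QKI, TWIST1 and CEACAM6), of which EHF, TWIST1 and CEACAM6 lay below the median level. These are 4.55% and 2.73% of the 110, below the 5.52% and 5.45% of all genes. LIN7C, a scaffold that joins the Crumbs complex, read 8.98, 7.85 and 7.83 in miR-224 cells, against 9.13, 8.48 and 8.43 in control cells. It was lower within each pair, with a mean of -0.46 ± 0.12 (limma adjusted p = 0.252).

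PRKCI, the atypical protein kinase C of the PAR complex, stood at -0.26 ± 0.10 and AFDN, afadin of the nectin junctions, at -0.27 ± 0.11 (limma adjusted p = 0.408 and 0.423). AFDN was 0.34 on its most variable probe set, and PRKCI 0.13. PLEC, plectin, which links keratin to hemidesmosomes, stood at -0.40 ± 0.13 (limma adjusted p = 0.309), and its level in experiment 1 minus that in experiments 2 and 3 was -5.43. QKI, an RNA-binding protein that promotes mesenchymal splice forms, stood at 0.83 ± 0.13 (limma adjusted p = 0.136). With all its probe sets averaged QKI stood at 0.31.

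Of the 15 repressors and mesenchymal genes, 13 had a higher mean, with a median of 0.07, but only 3 of the 15 lay at or above the median level. A higher mean was seen for 10516 of all 19775 genes and for 4698 of the 9888 at or above that level. Dim genes thus leaned upward in the whole series as well. SNAI1 and ZEB1 encode transcriptional repressors of CDH1. SNAI1 had a mean of 0.07 ± 0.12. ZEB1, below the median level, read 2.66, 2.84 and 2.86 in miR-224 cells and 2.76, 2.66 and 2.87 in control cells. VIM, the mesenchymal filament vimentin, was also below that level, at 0.04 ± 0.14. The other named genes of these lists were CLDN6 (0.16), LSR (-0.15), NECTIN1 (0.22), PERP (-0.10), KRT7 (-0.49) and CDX1 (-0.19). None of these passed the test (limma adjusted p from 0.464 to 0.782), and KRT7 stood at 0.21, -0.42 and -1.25 in experiments 1, 2 and 3. With all its probe sets averaged KRT7 stood at -0.12.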

How the data were processed

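The data are 6 Affymetrix Human Genome U133 Plus arrays of total RNA labelled with biotin. RMA and Partek made the values, per the submitters' processing notes, with versions and settings not given in the sources used here. The deposited values run from 1.47 to 13.6 with array medians of 3.41 to 3.53 and were read as log2, as RMA gives, although the base of the log is not stated. RMA makes the array distributions alike, so that a shift shared by most genes cannot be seen, and no depth applies to arrays: their number limits the precision. Of 54675 probe sets, 41091 had 1 symbol in the array annotation, 1801 had several, 11721 had none and 62 were controls.

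The test was a linear model with experiment as a block, fitted by limma 3.58.1 under R 4.3.3 with moderated variances, two-sided, and leaving 2 residual degrees of freedom. P-values were adjusted by Benjamini-Hochberg over 19775 genes, with a threshold of 0.05. The series states the pairs. Across genes, themselves no independent replicates, the deviations of same-numbered arrays from their group means had correlations of 0.855, 0.585 and 0.771, and those of other arrays -0.753 to 0.257. Apart from the stated experiments nothing says whether samples are separate cultures. The named genes were 12 set by name, the 3 of smallest p in each role and, from each further list, the 2 of smallest p among genes whose higher group mean reached the median level. Genes outside this rule that appear in a count of 5 or fewer, or in the account of a role, were named after their values were seen. The genes and lists were chosen with earlier results of these data known. The fit was tested on simulated data with planted differences larger than the mean differences described here. That test therefore does not cover differences of the sizes seen. Alternatives were no block, each experiment left out, other variance settings, array weights, other choices of probe set, a filter on dim genes and other scalings. Figures used matplotlib 3.10.9 in Python 3.11.15.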

Additional observations from a re-analysis of the deposited data

How the results depend on the processing

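Without the replicate block the count of the 42 genes past the test stayed at 0, with the lowest limma adjusted p at 0.9999. As no gene was called with the block either, the calls cannot show whether the results depend on the pairing. The count of the 42 at an unadjusted limma p under 0.05 was 5 with the block and 0 without it. The count over all genes, 0 with the block and 0 without it, was 56 with an intensity trend and robust variances, 4 with array weights and 1 with the most variable probe set, and 0 to 174 with one experiment left out. The count of the 42 was 0 to 1 with one experiment left out and 0 under all other alternatives. That of the other pathway genes was 1 with an intensity trend and robust variances and 0 to 1 with one experiment left out. Leaving out an experiment asks for 2 pairs of one sign in place of 3, which gave 10 to 18 genes lower (8 over 3 pairs) and 9 to 12 higher (6 over 3 pairs), and the most variable probe set gave 3 higher. The median of the 42 genes ran from -0.09 to -0.01 over the alternatives.

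Of 373 values of single named genes under the alternatives, 353 kept their direction and their side of the threshold, 3 passed the threshold (OCLN and QKI without experiment 1, and QKI with an intensity trend and robust variances) and 17 turned in sign. Many of the 353 could not have turned. Dropping the block, the intensity trend with robust variances and the filter on dim genes leave each difference as it is. The choice of probe set changes nothing for a gene with 1 probe set. The 353 is therefore no measure of how stable the directions are. With an experiment left out, CLDN4 ran from -0.0072 to 0.080, JUP from -0.21 to 0.13, KRT18 from -0.016 to 0.073, KRT19 from -0.18 to 0.0026, KRT8 from -0.12 to 0.23, PATJ from -0.32 to 0.043 and SNAI1 from -0.0075 to 0.21. With all probe sets of a gene averaged, AFDN stood at 0.00093, KRT19 at 0.027 and PERP at 0.025. With the most variable probe set AFDN stood at 0.34, NECTIN1 at -0.00080, PATJ at 0.047, PERP at 0.17 and PRKCI at 0.13, and with arrays centred on their median KRT18 stood at -0.00090. The cause was not tested. OCLN was -0.19 with its probe sets averaged, and DSP was 0.07 to 0.53 with an experiment left out. Signal near background limits CLDN1, CLDN2 and KRT20.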
